A study of Mus musculus with 4 samples.

Results

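Nuclear genes encode most subunits of the mitochondrial respiratory chain and of the ATP synthase, and their transcript levels were measured here in mouse T-helper 17 (Th17) cells, CD4 T cells known for making interleukin 17. The genes were chosen by symbol: the Nduf subunit genes of complex I, the 4 Sdh genes, the Uqcr genes with Cyc1, cytochrome c (Cycs), the Cox4 to Cox8 subunit genes and the Atp5 genes, off the mitochondrial chromosome. The symbol pattern found 96 genes, of which 6 named as pseudogenes were left out. That left 90 genes of 50600 in the deposited tables. Genes were assigned by symbol, with Ndufa4 and Ndufa4l2 placed in complex IV and every Atp5 gene in the ATP synthase (complex V). Complex I received 38, complex II 4, complex III 9, complex IV 21 and complex V 17, and 1 was cytochrome c. Of the 90 genes, 86 are annotated as protein coding and 4 as processed pseudogenes although their names do not say so (Ndufb4c, Ndufa11b, Ndufs6b and Cox6c2).

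The data are RNA-seq fragment counts from 4 libraries of 1 group, primary Th17 cells of strain C57BL/6NJ, numbered as biological replicates 1 to 4. The labels name a differentiation protocol for CD4 T cells, give 1 donor identifier for all 4 libraries, and give neither sex, age nor any treatment. They do not say whether the libraries came from separate animals or cultures, so SDs and p-values measure only the spread between these libraries. Part of that spread may be technical, and part lies between libraries that differ in sex-linked genes, as given below. A tag of 2 hours stands in the file headers, which do not say what was timed. The libraries are titled total RNA, while the linked library protocol is for poly(A)+ RNA.

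The respiratory chain passes electrons from NADH (complex I) and succinate (complex II) through ubiquinone to complex III, then through cytochrome c to complex IV, which reduces oxygen. Complexes I, III and IV pump protons out of the mitochondrial matrix, and the ATP synthase uses the returning protons to make ATP. A few core subunits of every complex except complex II are made inside the mitochondrion from its own genome, so each such complex needs both genomes. Activated T cells are known for gaining mitochondrial mass while glycolysis also increases.

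Total counts were 36298276, 40652146, 26953724 and 25847970 in replicates 1 to 4. Every pair of libraries differed by far more than sampling noise, with a chi-square per degree of freedom of 15.3 to 49.0, so each was kept as 1 replicate. The libraries did not look alike in sex-linked genes, although they share a donor identifier. Xist stood at 0.791, 0.602, 142 and 76.5 TPM (counts divided by exon length and scaled to a sum of 1000000 per library) in replicates 1 to 4. Ddx3y, on the Y chromosome, stood at 305, 213, 0.914 and 1.39 TPM, so replicates 1 and 2 stood apart from replicates 3 and 4. By these 2 genes, replicates 1 and 2 read as male and replicates 3 and 4 as female. SDs over the 4 libraries include this difference. All 6 T cell markers reached 1 TPM, as did 7 of 10 Th17 markers. Of the defining Th17 genes, Il17a was at 5.65 ± 1.20 TPM (SD, n = 4 here and throughout), while Il23r was at 0.132 ± 0.124 TPM with 11 counts in all. Other cell types' markers were low: no myeloid marker and no erythroid marker reached 1 TPM, and 1 of 5 did for B cells (Cd79a, 1.15 TPM), for cytotoxic and NK cells (Gzmb, 3.22 TPM) and for muscle and brown fat (Actn2, 1.37 TPM). In bulk RNA, fewer cells of a type and less RNA per cell cannot be told apart.

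The promoters of the member with the highest level in each complex are shown first, because these genes lead the values that follow. Each sequence is 120 bases of the gene's own strand (RefSeq windows, GRCm38.p6, the assembly of mm10). It ends directly before the RefSeq start or the start of the deposited gene model, whichever lies further upstream. For Atp5b and Uqcrh that was the deposited one. Atp5b stands for complex V in place of Atp5a1, whose promoter is not shown. Capitals mark a match, on either strand, to GCATGCG (the short form of the NRF1 motif), CCGGAAG (ETS family, which includes GABP), AAGATGGCG (YY1), CCAAT (NFY) or CACGTG (E-box).
Ndufa6, chr15:82354292-82354411, minus strand: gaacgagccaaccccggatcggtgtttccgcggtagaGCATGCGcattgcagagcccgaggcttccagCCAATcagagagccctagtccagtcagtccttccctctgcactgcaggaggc
Sdhd, chr9:50603850-50603969, minus strand: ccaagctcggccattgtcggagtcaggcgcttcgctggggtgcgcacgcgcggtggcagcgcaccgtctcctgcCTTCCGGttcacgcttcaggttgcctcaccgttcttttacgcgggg
Uqcrh, chr4:116075072-116075191, minus strand: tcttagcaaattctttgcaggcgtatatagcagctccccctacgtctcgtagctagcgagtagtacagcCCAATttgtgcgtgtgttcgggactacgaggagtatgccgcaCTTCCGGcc
Cycs, chr6:50566570-50566689, minus strand: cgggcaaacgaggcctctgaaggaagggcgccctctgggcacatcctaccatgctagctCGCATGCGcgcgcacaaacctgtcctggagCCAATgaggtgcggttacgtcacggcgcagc
Cox7a2l, chr17:83514334-83514453, minus strand: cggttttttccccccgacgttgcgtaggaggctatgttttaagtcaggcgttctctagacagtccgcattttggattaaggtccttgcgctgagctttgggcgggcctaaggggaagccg
Atp5b, chr10:128083153-128083272, plus strand: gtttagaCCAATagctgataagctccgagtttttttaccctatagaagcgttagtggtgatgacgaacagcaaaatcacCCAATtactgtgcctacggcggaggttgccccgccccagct

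Of these 6 stretches, those of Ndufa6 and Cycs held the NRF1 letters, those of Sdhd and Uqcrh held the ETS letters on the opposite strand, and that of Cox7a2l held none of the 5 motifs. In Cycs the NRF1 letters occurred on both strands over the same bases, with the plus-strand copy starting 60 bases before the start. RefSeq windows of 300 bases (250 before and 50 after the start) were matched for 65 of the 78 members at 1 TPM or more, with 70 windows in all. The longer NRF1 letters, GCGCATGCG, which contain the short form, were in 12.9% of member windows, in 4.01% of the windows of protein coding genes that passed the count filter and in 1.75% of all windows. The short form was in 17.1% against 6.81% of these tested coding windows and 3.58% of all windows. AAGATGGCG was in 10% against 3.43% and 1.4%, and CCGGAAG in 22.9% against 19.6% and 8.86%. The CCAAT box was in 41.4% against 37.9% and 37.4%, and the E-box in 10% against 10.4% and 7.15%. At least 1 of the NRF1 short form, ETS and YY1 letters was found for 28 of the 65 members, against 31.8% of tested coding genes. The 12 members with the NRF1 short form included Cycs, Uqcrc1, Sdhb, Cox6a1 and 4 ATP synthase genes (Atp5g2, Atp5j, Atp5k and Atp5l). These matches are descriptions of letters in a window, not binding sites.

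Most of the set was well represented in the RNA. A mean of at least 1 TPM was reached by 78 of the 90 members, against 45.2% of all 21764 protein coding genes. Of the members, 37 reached 100 TPM, where the share of all coding genes was 7.61%. The median over all 90 members was 75.6 TPM, beside 22.7 TPM over the 10286 coding genes that passed the count filter, a filter that the low members did not pass. Members in all took 0.514%, 0.565%, 0.478% and 0.563% of the counts in replicates 1 to 4 (0.530 ± 0.0419%). The median member level per complex was 56.2 TPM in complex I, 110 in complex II, 162 in complex III, 86.5 in complex IV and 117 in complex V. Complex IV held all 6 members without a single count, and its 12 members at 1 TPM or more had a median of 173 TPM.

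**Figure D1:**
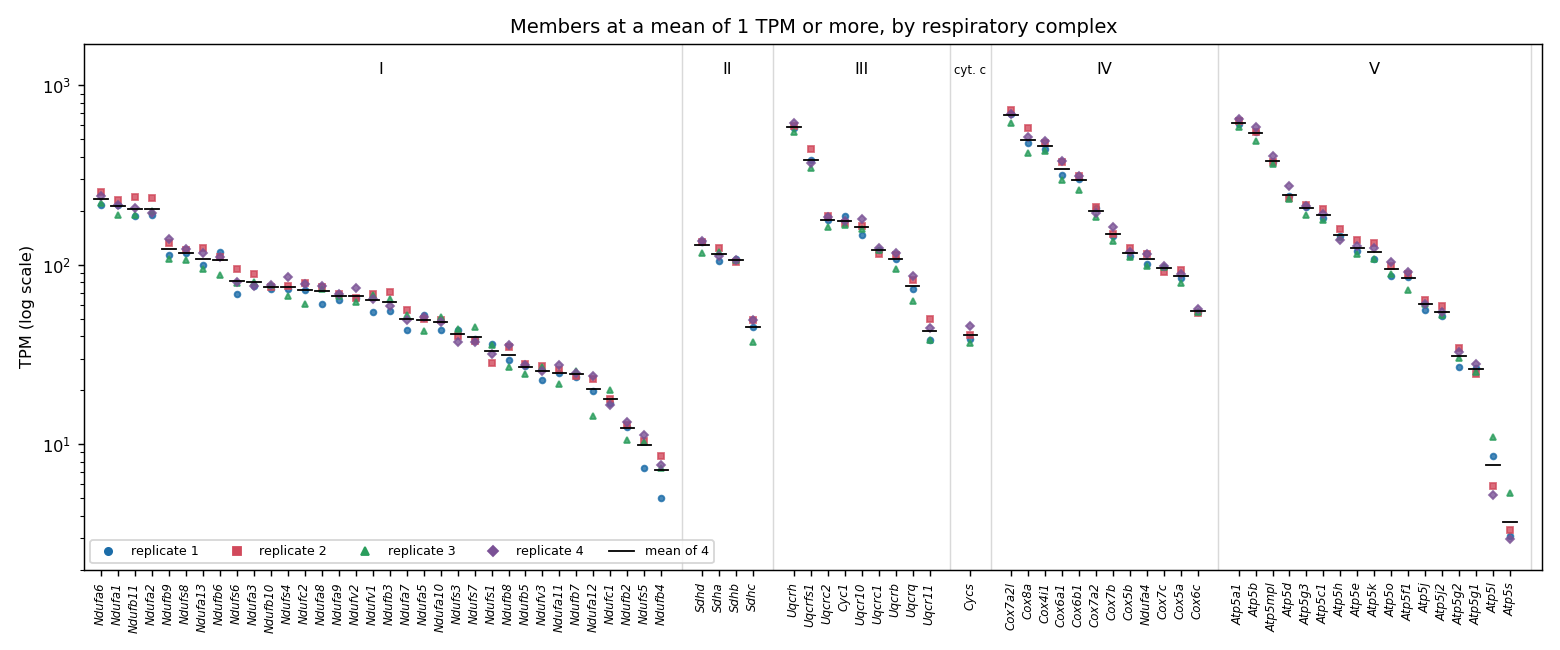
TPM (log scale) of the members at a mean of 1 TPM or more, apart from 1 that is not reported here, grouped by complex and ordered by mean; each symbol is 1 library and the bar is the mean of 4. Levels ran from 3.67 TPM (Atp5s) to 682 TPM (Cox7a2l), and within each of complexes I to V the highest and the lowest member did not overlap in any library.

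Complex I, the entry point for electrons from NADH, had 35 of 38 genes at 1 TPM or more, from 7.15 to 234 TPM. The 3 highest were accessory subunits, which surround the catalytic core: Ndufa6 (216, 255, 222 and 242 TPM in replicates 1 to 4), Ndufa1 (212 ± 16.5 TPM) and Ndufb11 (206 ± 23.8 TPM). All 3 lay above every other complex I gene in mean level, but Ndufa2, at 205 ± 21.8 TPM, did not differ from Ndufa1 and Ndufb11 beyond its spread. In every library Ndufa2 (189, 237, 199 and 195 TPM) lay below Ndufa6. Nuclear core subunits, which carry the flavin and the iron-sulphur clusters or frame the quinone site, lay lower. Ndufs8 was at 116 ± 7.58 TPM, Ndufv2 and Ndufv1 at 66.7 ± 5.24 and 64.0 ± 6.56 TPM, and Ndufs3 and Ndufs7 at 41.0 ± 3.16 and 39.5 ± 3.77 TPM. Within each of these 2 pairs, Ndufv2 with Ndufv1 and Ndufs3 with Ndufs7, the difference was smaller than the spread between libraries. Ndufs1, the largest core subunit, was at 33.0 ± 3.64 TPM, the lowest of these. With the median length of its coding transcripts in place of the union of all exons it was at 191 TPM, above every other gene of the complex. That median was 651 bases against a union of 8086, and incomplete transcript models were not left out of it. The 191 TPM may therefore be too high. The lowest coding genes of the complex were the accessory subunits Ndufb4 (7.15 ± 1.51 TPM), Ndufs5 (9.86 ± 1.69 TPM) and Ndufb2 (12.3 ± 1.20 TPM). The 3 pseudogenes Ndufb4c, Ndufa11b and Ndufs6b were at 0.415, 0.222 and 0.186 TPM, each with 0 counts in at least 1 library.

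Complex II, succinate dehydrogenase, is also a citric acid cycle enzyme and is coded by nuclear genes alone. Its flavoprotein gene Sdha was at 104, 124, 117 and 112 TPM in replicates 1 to 4, and its iron-sulphur subunit gene Sdhb at 108, 104, 106 and 107 TPM. These ranges overlapped, and the Sdha to Sdhb ratio was 1.08 ± 0.0937. Sdhb had the narrowest spread of all members at 10 TPM or more, with a coefficient of variation of 1.55%. Of the 2 membrane anchors, Sdhd was at 129 ± 9.35 TPM and Sdhc at 45.2 ± 5.75 TPM, a ratio of 2.88 ± 0.190. That ratio turned around with the length used: with transcript length it was 0.723 ± 0.0477.

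Complex III passes electrons from ubiquinol to cytochrome c, and all 9 of its genes exceeded 10 TPM. Uqcrh, the hinge subunit that contacts cytochrome c1, was the highest at 581, 596, 552 and 620 TPM, and no library of any other complex III gene reached this range. Uqcrfs1, the Rieske iron-sulphur protein, followed at 385 ± 39.5 TPM. The core protein genes Uqcrc2 and Uqcrc1 were at 178 ± 11.0 and 120 ± 3.71 TPM, a ratio of 1.48 ± 0.116. This ratio also turned around with transcript length (0.413 ± 0.0324). For Uqcrc1 that length was 533 bases against a union of 4135, with incomplete transcript models not left out, so the turn may come from too short a length. Cyc1, which codes for cytochrome c1, was at 175 ± 8.54 TPM and overlapped Uqcrc2. The lowest were the small subunits Uqcr11 (42.6 ± 5.93 TPM), Uqcrq (76.3 ± 10.4 TPM) and Uqcrb (108 ± 9.33 TPM). Cycs, the mobile electron carrier, was at 38.7, 40.6, 36.6 and 45.7 TPM, 0.231 ± 0.0222 of the level of Cyc1 (0.151 ± 0.0145 with transcript length). The germ-line cytochrome c gene Cyct, which the symbol rule does not cover, had 0 counts in all 4 libraries.

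Complex IV, cytochrome c oxidase, is the complex in which several nuclear subunits come as pairs of ubiquitous and tissue-restricted isoforms. Its highest gene was Cox7a2l at 693, 729, 618 and 690 TPM, the highest of all 90 members. Cox7a2l is related in sequence to the Cox7a subunits, and whether its protein was made or active in these cells was not measured. Cox8a followed at 480, 578, 419 and 517 TPM and Cox4i1 at 442, 478, 430 and 488 TPM, and these overlapped. Among its genes at 1 TPM or more the lowest were Cox6c (54.9 ± 1.05 TPM), Cox5a (86.5 ± 6.31 TPM) and Cox7c (95.8 ± 3.30 TPM).

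In each pair of a ubiquitous and a restricted isoform the ubiquitous one was the higher. Cox4i2, Cox6a2, Cox7b2, Cox8b, Cox8c and Ndufa4l2 had 0 counts in all 4 libraries. Cox4i2 is known from lung, Cox6a2 and Cox8b from heart and muscle, and Cox8c from testis. Taking 3 counts as the upper limit that 0 counts allow in each library, Cox4i1 was at least 855-fold higher than Cox4i2 in every library. In the same way Cox6a1 (342 ± 41.4 TPM) was at least 508-fold higher than Cox6a2, Cox7b (148 ± 11.2 TPM) at least 185-fold higher than Cox7b2, and Ndufa4 (107 ± 8.53 TPM) at least 273-fold higher than Ndufa4l2. Cox8a was at least 381-fold higher than Cox8b and at least 503-fold higher than Cox8c. These limits cover counting error only. The other minor isoforms were detected at low level. Cox6b2, known from testis, had 36 counts (1.29, 0.959, 0.477 and 0.467 TPM), beside 297 ± 24.9 TPM for Cox6b1. Cox7a1, known from heart and muscle, had 4 counts, all in replicates 3 and 4, beside 198 ± 11.7 TPM for Cox7a2. Cox6c2, the fourth pseudogene, was at 0.294 TPM.

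**Figure D2:**
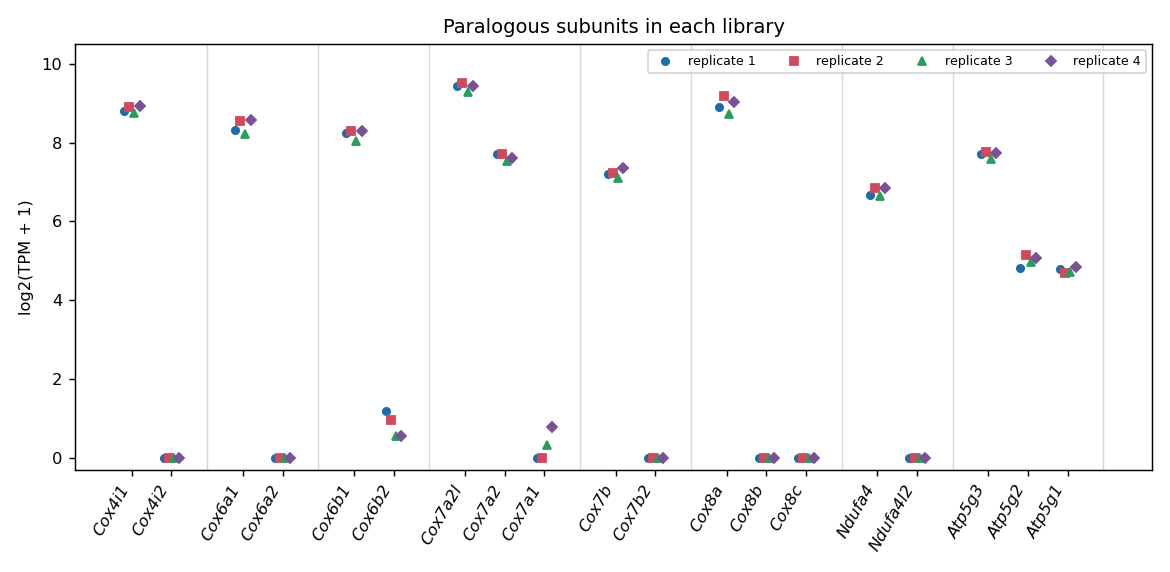
log2(TPM + 1) of paralogous subunits in each of the 4 libraries, 8 families separated by lines. The minor cytochrome oxidase isoforms lie at or close to 0, while in the 2 families with more than 1 expressed gene, Cox7a2l lies above Cox7a2 and Atp5g3 above Atp5g2 and Atp5g1.

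Across 12 contrasts between paralogues, each was in 1 direction in 4 of 4 libraries. With 4 libraries an exact permutation test (two-sided, flipping signs) cannot go below p = 0.125, and all 12 contrasts stood at that value, also after Benjamini-Hochberg adjustment over the 12. So none could pass 0.05. On the log2(TPM + 1) scale Cox7a2 was 1.78 ± 0.04 below Cox7a2l, a difference many times its spread (Cox7a2 minus Cox7a2l was -1.78).

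Complex V, the ATP synthase, had all 17 genes at 1 TPM or more. The catalytic head is built from the alpha subunit (Atp5a1) and the beta subunit (Atp5b), around the central stalk with gamma (Atp5c1), delta (Atp5d) and epsilon (Atp5e). Atp5a1 was at 605, 633, 588 and 653 TPM and Atp5b at 546, 550, 489 and 586 TPM. In each library Atp5a1 was the higher, with a ratio of 1.14 ± 0.0433, but with transcript length the ratio was 0.630 ± 0.0238. Relative to the gamma subunit gene Atp5c1 (189 ± 11.7 TPM), Atp5a1 stood at 3.28 ± 0.123 and Atp5b at 2.87 ± 0.174. With transcript length these were 2.09 ± 0.0783 and 3.33 ± 0.202, so both genes stayed above gamma under either length. Atp5d stood at 1.30 ± 0.111 times Atp5c1, and Atp5e at 0.659 ± 0.0101, or 1.44 ± 0.0221 with transcript length. Atp5mpl, a small membrane subunit, was the third highest at 380 ± 17.8 TPM, but with transcript length it was at 149 TPM. Besides Atp5a1 and Atp5b, Atp5g3 (294), Atp5e (244), Atp5d (239), Atp5c1 (169), Atp5h (160), Atp5f1 (158) and Atp5j2 (156) then lay above it. The lowest were Atp5s (3.07, 3.30, 5.33 and 2.96 TPM), Atp5l, the membrane subunit g (8.56, 5.86, 10.9 and 5.18 TPM), and Atp5g1.

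Subunit c, whose ring turns in the membrane as protons pass, is coded by 3 genes that carry different import sequences and the same mature protein. Atp5g3 (chr2:73908447-73911326 in the deposited tables) was at 210, 215, 190 and 213 TPM. Atp5g2 was at 27.1, 34.2, 30.3 and 32.6 TPM, and Atp5g1 at 26.5, 24.6, 25.3 and 27.9 TPM. Atp5g3 did not overlap the others in any library, and Atp5g1 minus Atp5g3 was -2.94 ± 0.10 on the log2(TPM + 1) scale and Atp5g2 minus Atp5g3 -2.70 ± 0.14. Atp5g1 and Atp5g2 overlapped across libraries, with a difference of -0.24 ± 0.18. The last 150 coding bases, stop codon included, are shown because they tell how far fragments from the 3 genes can be separated. Capitals mark bases that differ from Atp5g3, and the sequences are from the GENCODE M21 transcripts.
Atp5g3: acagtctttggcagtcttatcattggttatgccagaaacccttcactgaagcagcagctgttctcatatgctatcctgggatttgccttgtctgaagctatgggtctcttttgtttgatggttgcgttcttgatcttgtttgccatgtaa
Atp5g1: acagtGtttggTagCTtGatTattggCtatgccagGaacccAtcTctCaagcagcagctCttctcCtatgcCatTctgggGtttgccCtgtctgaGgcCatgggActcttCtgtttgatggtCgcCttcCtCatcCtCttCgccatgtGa
Atp5g2: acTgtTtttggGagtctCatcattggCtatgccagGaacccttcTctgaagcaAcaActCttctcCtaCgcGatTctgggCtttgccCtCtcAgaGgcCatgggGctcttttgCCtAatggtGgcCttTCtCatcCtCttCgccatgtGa

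Over this stretch Atp5g1 differed from Atp5g3 at 29 bases and Atp5g2 at 33 bases, and the longest run identical to Atp5g3 was 11 and 8 bases. No run as long as 31 bases was common to Atp5g3 and either of the others in this stretch, so the overlap lies elsewhere, with copies. Fragments that align to more than 1 place were not counted by the authors. For Atp5g2, 100% of the 31-base words of a coding transcript also occur in transcripts of other genes, all of them pseudogenes. For Atp5g1 the share was 67.3%, and for Atp5g3 it was 0. The gene with the highest level was thus the one with no shared words, and the part of uncounted fragments in the difference was not tested.

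Sequence sharing touched 14 of the 78 members, taking as the limit over 30% of the 31-base words of the coding transcript with the highest share. Over the words of all transcripts of a gene, only Atp5g2 (37.5%) and Uqcrb (32.4%) passed that limit. The shares that follow are of the coding transcript. Besides Atp5g2 and Atp5g1 these were Atp5h (79.4%), Atp5l (69.7%), Ndufs5 (59.1%), Ndufa12 (59.0%), Cox5b (56.4%), Cox7c (55.7%), Uqcrb (54.3%), Atp5f1 (50%), Ndufs3 (49.3%), Ndufb4 (38.3%), Atp5o (32.8%) and Cycs (32.0%). The median level of these 14 was 40.7 TPM, beside 107 TPM for the other 64, and 4 of the 10 lowest members were among them. These 4 were Ndufb4, Atp5l, Ndufs5 and Ndufa12. The counts of the 14 genes are uncertain for this reason, and its part in their levels was not tested. In addition, Atp5o shared 12.7% of its exon bases with Donson on the same strand.

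Levels of many members depended on the length used, and the orders of genes given above are for the deposited one. The deposited exon length is the union over all annotated transcripts. It was over 2 times the median coding transcript length in 37 of 78 members and over 5 times in 8. Incomplete transcript models were not left out of this median, so it can be too short, as may be the case for Ndufs1 (651 bases) and Uqcrc1 (533 bases). With transcript length 17 members were more than 1.5 times higher, led by Ndufs1 (191 in place of 33.0 TPM) and Atp5l (42.2 in place of 7.64 TPM). More than 1.5 times lower were 22 members. TPM is scaled to a fixed sum, so genes with the same length both ways also fell. Ndufa1 (212 to 99.3 TPM), Uqcrfs1 (385 to 180 TPM) and Sdhd (129 to 60.6 TPM) stood at 0.468 of their value in this way. The lower values therefore do not show a dependence on the gene's own length. Cox7a2l, whose own 2 lengths were close (a ratio of 1.04), stood at 332 TPM with transcript length. That was below Uqcrh (717), Atp5b (562), Cox4i1 (447), Uqcrc1 (437) and Atp5a1 (353).

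**Figure D3:**
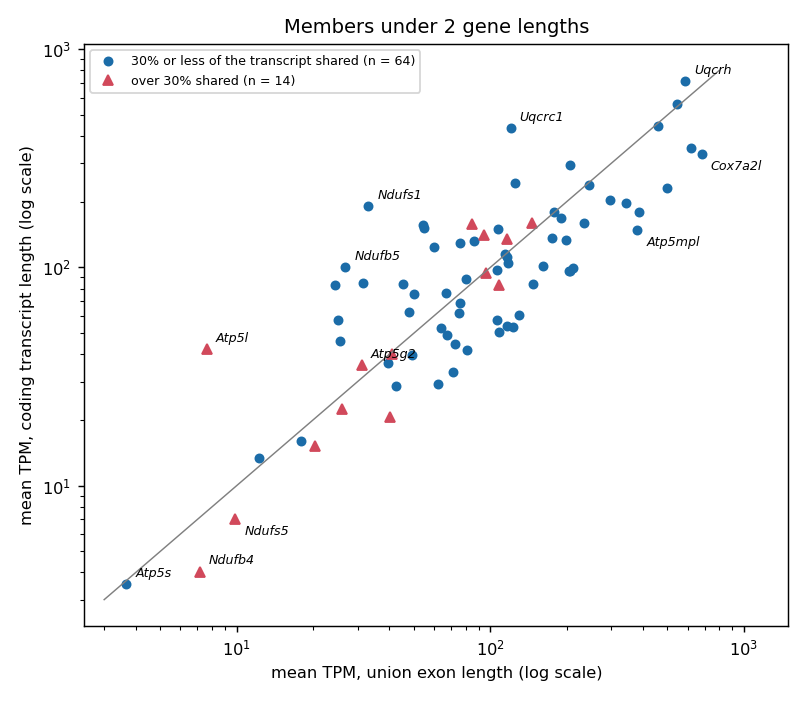
Mean TPM of the 78 members with the union exon length (horizontal, log scale) and with the median coding transcript length (vertical, log scale); triangles mark the 14 members with over 30% of a coding transcript shared with other genes, and the line marks equal values. Atp5l, Ndufs1, Ndufb5 and Uqcrc1 lie far above the line, and 4 of the 10 lowest members are triangles.

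The spread of the members between libraries is given here beside that of all genes. Variation beyond the trend was tested by the negative binomial deviance of each gene around its mean at the edgeR trended dispersion, with Benjamini-Hochberg adjustment over all 11567 genes tested. Of these genes 0.813% (94) were called at an adjusted p under 0.05, and 0 of the 78 members tested were. At so low a share in all genes, 0 of 78 does not set the members apart. At an unadjusted p under 0.05 there was 1 member against 692 of all genes (5.98%). With DESeq2 size factors or DESeq2 trend dispersions the members called were also 0, and 1 at an unadjusted p under 0.05. That 1 member was Atp5l, whose libraries ran from 5.18 to 10.9 TPM (adjusted p = 0.446 by the edgeR fit across all genes). The median coefficient of variation was 7.93% over the 78 members and 13.4% over all genes tested. Among genes at 10 TPM or more it was 7.85% for 74 members and 10.6% for 7437 genes. These comparisons were not matched for level. At 1 TPM or more the median was 90.3 TPM for members and 22.8 TPM for all genes tested. The narrowest were Sdhb (1.55%), Cox6c (1.90%), Ndufb10 (2.31%), Uqcrc1 (3.08%) and Ndufb7 (3.33%). The widest at 10 TPM or more were Ndufa12 (21.1%), Uqcr11 (13.9%), Uqcrq (13.7%), Cox8a (13.4%) and Ndufb8 (13.2%), and all 5 had their highest value in replicate 2 or 4.

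The differences of the members between libraries had a pattern. Summed over members, TPM was 10632, 11500, 10129 and 11324 in replicates 1 to 4. Replicate 3 was the lowest library for 41 of 78 members (52.6%), against 15.1% of all genes tested, and the highest for 8 members (10.3%) against 50.2%. Members were most often highest in replicate 2 (32 genes, 41.0%, against 18.5% of all genes tested) or replicate 4 (33 genes, 42.3%, against 15.3%). In complex IV, 10 of 12 members at 1 TPM or more were lowest in replicate 3, and in complex III 6 of 9. In complex I 14 of 35 were lowest in replicate 3 and 16 in replicate 1, while on TMM-normalized counts these numbers were 21 and 12. The median deviation from the gene mean in log2(TPM + 1) was -0.04, 0.08, -0.09 and 0.05 for members, beside 0.00, -0.04, 0.10 and -0.06 for all genes tested. Relative to all genes, members therefore stood at -0.19 in replicate 3 and at 0.12 in replicate 4. On TMM-normalized counts, a check chosen after seeing the data, these relative values were -0.20 and 0.12, and 60 of 78 members were lowest in replicate 3 against 31.9% of all genes. This was a description with no test, and no single member passed one.

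**Figure D4:**
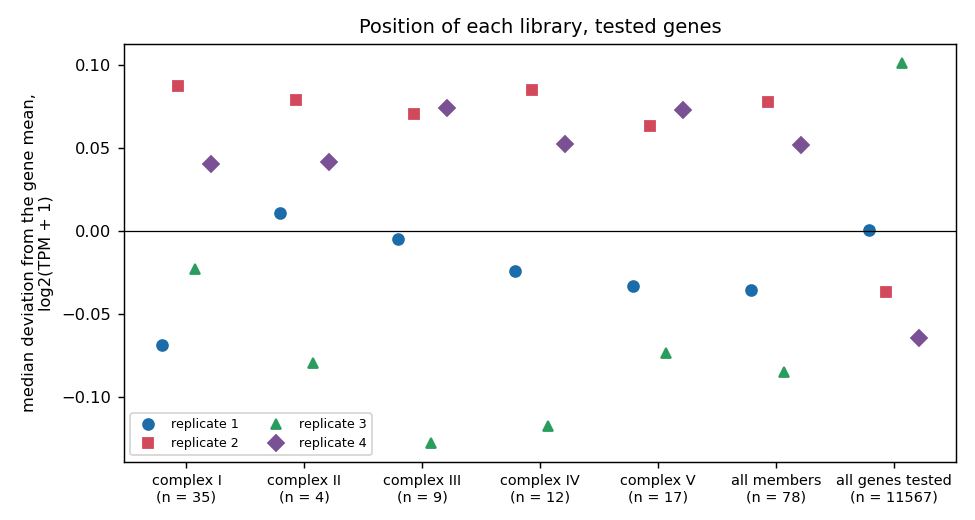
Median deviation of each library from the gene mean, in log2(TPM + 1), for the tested members of each complex, all 78 tested members and all 11567 tested genes; each symbol is 1 library. Replicate 3 is the lowest symbol in complexes II to V and for all members (-0.09) and the highest for all genes tested (0.10); in complex I replicate 1 is lower on this scale, but not on TMM-normalized counts (-0.13 in replicate 3 and -0.06 in replicate 1).

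Other measures moved with the same library. The 75 tested cytosolic ribosomal protein genes were lowest in replicate 3 in 93.3% of cases, with a median relative to all genes of -0.25. Of 1815 other coding genes with transcripts under 1000 bases 22.4% were lowest there, with a relative median of -0.05. Of 3076 other coding genes at 50 TPM or more it was 24.8%, with -0.07. On TMM-normalized counts 76.9% of members and 31.9% of all genes tested were lowest there. For the ribosomal, short and high-level genes the TMM shares lowest in replicate 3 were 98.7%, 41.4% and 51.1%. The mitochondrial share of counts was also lowest there (2.16%, 2.16%, 1.98% and 2.40% in replicates 1 to 4). Depth and Xist are given above: replicate 4, where members were high, had the fewest counts, and Xist was high in replicates 3 and 4. The part of these measures in the result was not tested.

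The X-linked members Ndufa1, Ndufb11 and Cox7b did not separate replicates 1 and 2 from replicates 3 and 4. Ndufa1 was at 214, 229, 189 and 216 TPM, Ndufb11 at 188, 239, 190 and 206 TPM, and Cox7b at 145, 148, 135 and 162 TPM. In each gene the 2 pairs of libraries overlapped.

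The partner subunits from the mitochondrial genome could be read only in part. Of 13 listed genes 7 passed the count filter, led by mt-Co1 (20415 ± 1096 TPM) and mt-Cytb (10706 ± 783 TPM). The 6 others, mt-Co2, mt-Co3, mt-Atp6, mt-Atp8, mt-Nd3 and mt-Nd4l, were listed at or near 0, with 1 and 0 counts for the ATP synthase genes mt-Atp6 and mt-Atp8. The 13 genes summed to 53170 ± 3420 TPM, 4.89 ± 0.300 times the nuclear sum, with those 6 genes near 0.

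Most helper genes of the pathway were detected, and each assembly list had a lower median than the subunits of its complex. None of the genes of the lists described here was called as varying (edgeR deviance test, background 0.813%). All 14 complex I assembly factors reached 1 TPM, with a median of 10.7 TPM, from Nubpl (2.03 TPM) to Ndufaf4 (24.8 TPM) and Ndufaf8 (35.2 TPM). For complex II it was 3 of 4 (median 10.4 TPM), led by Sdhaf2 (48.4 TPM) and Sdhaf1 (13.4 TPM), with Sdhaf3 at 0.946 TPM. For complex III it was 6 of 6 (median 12 TPM), from Lyrm7 (1.02 TPM) to Uqcc2 (28.0 TPM) and Uqcc3 (61.0 TPM). For complex IV it was 20 of 21 (median 14.7 TPM), led by Cox14 (93.6 TPM) and Cox20 (59.0 TPM), with Pet117 at 0 counts. The 3 ATP synthase factors were Tmem70 (43.5 TPM), Atpaf2 (26.9 TPM) and Atpaf1 (4.75 TPM).

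The neighbouring pathways stood closer to the subunits. All 14 citric acid cycle genes reached 1 TPM, with a median of 70.6 TPM, led by Mdh2 (158 ± 8.16 TPM) and Dlst (153 ± 17.0 TPM), with Suclg2 lowest (20.6 ± 2.69 TPM). Of the inner membrane carriers and porins 7 of 8 did, led by the adenine nucleotide carrier Slc25a5 (703 ± 67.4 TPM) and the phosphate carrier Slc25a3 (381 ± 99.2 TPM), while Slc25a31 was at 0.0155 TPM. Enzymes that feed ubiquinone from other substrates were lower, 6 of 7 at 1 TPM or more with a median of 5.5 TPM. Etfa (46.0 TPM) and Gpd2 (45.0 TPM) led them and Prodh was lowest (0.928 TPM). Of 16 regulators of mitochondrial gene expression 15 reached 1 TPM. Myc was at 1691 ± 68.4 TPM and Yy1 at 146 ± 5.17 TPM. Nrf1 was at 16.7 ± 0.539 TPM, and the GABP subunit genes Gabpa and Gabpb1 at 54.0 ± 1.47 and 115 ± 5.23 TPM. In the PGC-1 family of coactivators Pprc1 was at 133 ± 23.7 TPM, Ppargc1b at 4.94 ± 0.980 TPM and Ppargc1a at 0.0821 ± 0.0591 TPM. The order of the regulators changed with transcript length, where Pprc1 was at 826 TPM, Gabpb1 at 181, Nrf1 at 48.3 and Yy1 at 32.0 TPM, all below Myc at 1199 TPM.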

How the data were processed

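RNA-seq fragments were counted per gene in 4 Th17 libraries. The deposited values are raw counts. Per the file headers, featureCounts 1.4.6-p4 assigned the fragments to exons of GENCODE mouse M13. These headers record paired fragments with both ends mapped and reverse strandedness (option 2). Since the headers set no option for multi-mapping fragments or for those over several genes, both were left uncounted. The labels name mm10.

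TPM was computed here from the counts and the deposited union exon lengths. Of 50600 gene identifiers, 50376 were matched to GENCODE M21 symbols without their version and 224 were not. Shared 31-base words were counted over the M21 transcripts, and the shares of single genes are those of the coding transcript with the highest share unless stated otherwise. Variation was tested with edgeR 4.0.16 (TMM, filterByExpr, 11567 genes) in R 4.3.3, as the deviance of an intercept-only fit against chi-square with 3 degrees of freedom; DESeq2 1.42.0 gave alternatives. With 1 group, no test between groups could be made. Paralogue contrasts used log2(TPM + 1) and an exact sign-flip permutation test. In replicates 1 to 4, 3 counts correspond to 0.0826, 0.0738, 0.111 and 0.116 CPM, that is, counts out of 1000000 in the library.

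The members and lists were chosen with earlier results of these data known. Named are the 3 highest and 3 lowest members per complex, all of complex II, Cyc1 and Cycs, both genes of each paralogue pair, the 5 widest and 5 narrowest coefficients of variation, members with over 30% shared words, and of each related list the 2 highest and the lowest genes; the core subunits of complex I, the stalk subunits of complex V, X-linked members and some regulators were added after their values were seen. A few single values are not reported here.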

Additional observations from a re-analysis of the deposited data

Results flagged for a closer look

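In 3 of the 84 members with counts, 1 library stood apart from the other 3 by more than Dixon's 95% critical value for 4 samples, and chance alone gives about 1 in 20. Sdhd, an anchor subunit of complex II, was lowest in replicate 3 at 115.6 TPM, beside 133, 133 and 136 TPM in replicates 1, 2 and 4. Cox7c, a small complex IV subunit, was lowest in replicate 2 at 90.88 TPM, beside 96.8, 97.5 and 97.9 TPM. Atp5s was highest in replicate 3 at 5.334 TPM, beside 3.07, 3.30 and 2.96 TPM. None of the 3 was called as varying by the edgeR deviance test with Benjamini-Hochberg adjustment.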

How the results depend on the processing

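No paired analysis was possible because there is 1 group of libraries. With transcript length the median member level was 52.8 TPM in complex I, 90.8 in complex II, 136 in complex III, 93.8 in complex IV and 156 in complex V. With mitochondrial genes left out of the TPM denominator it was 59.6 in complex I and 117 in complex II, and with only members at 1 TPM or more 64.0 in complex I and 173 in complex IV. Single levels moved beyond their SD in 66 of 90 members with transcript length and in 19 without mitochondrial genes. Both settings also rescale genes whose own length is unchanged. Leaving out 1 of 4 libraries cannot move a mean by its SD, so that comparison says nothing about stability; by more than 1.5 times it moved only members below 1 TPM, Cox7a1 (0.0823 TPM without replicate 4), Cox6c2 (0.118 TPM without replicate 1) and the pseudogenes Ndufs6b, Ndufb4c and Ndufa11b (without replicate 2). The count of 78 members at 1 TPM held with 1 TPM in every library and with transcript length, and was 74 at a mean of 10 TPM. No member was called as varying under any alternative, while the calls over all genes ran from 35 to 60 when a library was left out and reached 256 with a common dispersion (94 with the trend). No paralogue contrast reversed with a pseudocount of 0.1, with transcript length or without any 1 library, where the smallest possible p was 0.25. Depth limits the minor isoforms: 0 counts cannot be told from up to 3 counts in a library.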

Other observations

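Subunits and partners that carry other symbols lie outside the rule used for the members. Usmg5, a small membrane subunit of the ATP synthase, was at 346, 381, 307 and 443 TPM in replicates 1 to 4. Atpif1, which codes for the inhibitor that blocks ATP hydrolysis by the enzyme, was at 12 ± 2.30 TPM, far below the catalytic subunits. Ndufab1, the acyl carrier protein found in complex I, was at 4.38 ± 0.614 TPM. Of the 6 genes left out as named pseudogenes, Uqcrh-ps2 was the highest at 3.95 ± 1.96 TPM with 40 counts, and 2 had 0 counts in all libraries (Uqcrh-ps1 and Atp5k-ps2).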
